A study of Homo sapiens with 8 samples.

Results

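The replication-dependent histone genes and the factors that transcribe and process them were followed in RNA-seq libraries of HCT-8 colon cancer cells. Members were the genes whose current symbol is H1-1 to H1-6 or starts with H2AC, H2BC, H3C or H4C followed by digits, plus NPAT, SLBP, CASP8AP2 (which encodes FLASH), LSM10 and LSM11. Of 88 symbols that match, 84 had an identifier in the count tables, and 47 of them held 10 or more counts over the 8 libraries and were kept, out of 64253 gene identifiers in all. The kept genes were 40 protein-coding histone genes, 2 transcribed histone pseudogenes (H2BC19P and H2BC20P) and the 5 factors. Among the other histone symbols in the tables, 21 had no count in any library and 16 had between 1 and 9. H2AC18, H2AC19, H3C2 and H3C3 were not analysed here. A total of 29 kept genes, 24 histone genes and the 5 factors, passed the filter on low counts and were tested, and 18 histone genes were kept but not tested.

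HCT-8 cells are an established human colon cancer line that 5-fluorouracil (5-FU) inhibits, and HCT-8/FU is the corresponding 5-FU-resistant line. Both were sequenced in unconditioned medium, and HCT-8 cells were also sequenced after growth in conditioned medium (CM) that had been kept for 48 h on HCT-8 (here called sensitive-CM, CM of HCT-8 in the plots) or on HCT-8/FU (resistant-CM, CM of HCT-8/FU in the plots). Each of the 4 groups had 2 replicates, and the labels do not say whether these were separate cultures, so the p-values measure the spread between these libraries, which may be technical. The labels name Ham's F12 with serum as culture medium, whereas the study's methods name RPMI. Whether HCT-8/FU cells were kept in 5-FU until harvest is not given in the labels, and the resistant line is 1 line. The study set sensitive against resistant cells, and one CM against the other, to look for changes tied to coilin, the scaffold of the Cajal body, a nuclear body in which small RNPs mature and which lies close to the histone loci.

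Replication-dependent histone genes supply the histones that package newly copied DNA, and they are transcribed mainly in S phase. Most lie in clusters on chromosomes 6 and 1. NPAT, a substrate of cyclin E with CDK2, drives their transcription in the histone locus body, and FLASH joins NPAT there and also takes part in processing. Their mRNAs end without a poly(A) tail. A conserved stem-loop behind the stop codon is bound by SLBP, and the U7 snRNP, with LSM10 and LSM11 in its ring, directs the cut just past the loop. The libraries were made from RNA captured on mRNA beads, which bind poly(A) tails, so the histone counts below come from a step that takes up the mature, untailed form poorly.

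The stem-loops of the expressed genes are shown first because they define the untailed end. They were read from GRCh38 as 30 bases, with the 16 bases of the stem-loop in capitals:
H2BC12 (chr6:27146359-27146388, minus strand): ccccaaaGGCTCTTTTAAGAGCCacttaaa
H2AC6 (chr6:26124662-26124691, plus strand): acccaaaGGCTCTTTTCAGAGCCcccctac
H2AC25 (chr1:228457362-228457391, minus strand): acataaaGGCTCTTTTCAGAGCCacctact
H1-2 (chr6:26055737-26055766, minus strand): cccaaaaGGCTCTTTTCAGAGCCaccactg
H4C9 (chr6:27139647-27139676, plus strand): ctaaaaaGGCCCTTTTTAGGGCCcctaagc
H4C14 (chr1:149833025-149833054, plus strand): tcccaaaGGCCCTTTTTAGGGCCgaccact
H4C15 (chr1:149860762-149860791, minus strand): tcccaaaGGCCCTTTTTAGGGCCgaccact

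A stem-loop was searched as GGNNNT, 4 loop bases and ANNNCC with paired arms, within 150 bases behind the stop codon on the coding strand, and was found in 87 of 19924 protein-coding genes (0.437%). Of 66 protein-coding histone genes in the tables, 63 carried it, and 37 of the 40 kept ones did. The 5′ arm was GGCCCT in all 15 H4 genes with a stem-loop and GGCTCT in the 48 genes of the H1, H2A, H2B and H3 families. The loop was TTTC in 46 genes, TTTA in 9, TTTT in 5, TCTC in 2 and TCTA in 1. H4C14 and H4C15 have the same 30 bases. Reads that fit both of these near-identical copies may lie among the records not aligned uniquely, which stayed out of the counts per gene.

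Genes with counts were unevenly spread over the annotated 3′ ends. In GENCODE 44, 17 of the 63 genes with a stem-loop have an annotated end more than 100 bases past it, and 16 of these 17 held 10 or more counts, with a median of 134 counts over the 8 libraries. Of the 46 genes whose annotation ends within 100 bases of the loop, 21 held 10 or more counts, with a median of 6.5. The annotated end lay 22592 bases past the loop in H2AC25, 14432 in H2AC6 and 1729 in H2BC21, but 5 in H2BC12, 4 in H1-2 and 9 in H4C9. The identifiers in the count tables do not date to GENCODE 44, so the exons that were counted may differ from these, and lengths per kilobase below carry the same limit.

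Between 5804124 and 34881349 counts fell on genes in each library, and 3 libraries (HCT-8 replicate 1, HCT-8/FU replicate 2 and sensitive-CM replicate 1) had over 15% of their records not aligned. All 9 colon epithelial markers looked at were detected, with EPCAM at 298 to 502 CPM, and of 7 markers of other cells PTPRC and COL1A2 had no count in any library, while COL1A1 (8.19 to 13.8 CPM), ACTA2 (3.95 to 6.35 CPM) and PECAM1 (0.79 to 1.92 CPM) were detected. Of 12 small RNAs without a poly(A) tail that were found in the tables, 6 had no count and the highest count in any library was 7, for SNORD3A. The summed level of the 7 markers of other cells lay between 16.3 and 21.3 CPM (counts per 1e+06 counts on genes, scaled by TMM) in all libraries.

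Summed over the 42 histone members, the TMM-normalized level was low in all groups. It was 59.1 and 65.1 CPM in the HCT-8 libraries, 61.6 and 69.5 in HCT-8/FU, 57.8 and 66.7 in sensitive-CM and 64.3 and 63.9 in resistant-CM. On this scale the groups overlapped in each comparison, and the means were 62.1 ± 4.26 (SD, n = 2), 65.6 ± 5.62, 62.2 ± 6.32 and 64.1 ± 0.251 CPM. The sum rested on 416 to 2203 counts per library, and the exact 95% Poisson interval of the shallowest library, HCT-8/FU replicate 2, ran from 63 to 76.5 CPM, which covers counting error only. The exact two-sided permutation p was 0.667 for HCT-8/FU against HCT-8, where 2 libraries against 2 cannot go below 0.333. It was 1 in both other comparisons (n = 2 per group, exact permutation test). The overlap depended on the scaling. As a plain share of the counts on genes, the sum was 55.7 and 63.2 counts per 1e+06 in HCT-8 cells, 65.1 and 71.7 in HCT-8/FU, 53.7 and 66.3 in sensitive-CM and 66.7 and 66.5 in resistant-CM, so that HCT-8/FU lay above HCT-8 and resistant-CM above sensitive-CM without overlap, the latter by a narrow margin. In these bulk libraries, fewer cells that express a gene and less RNA per cell cannot be told apart.

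**Figure D1:**
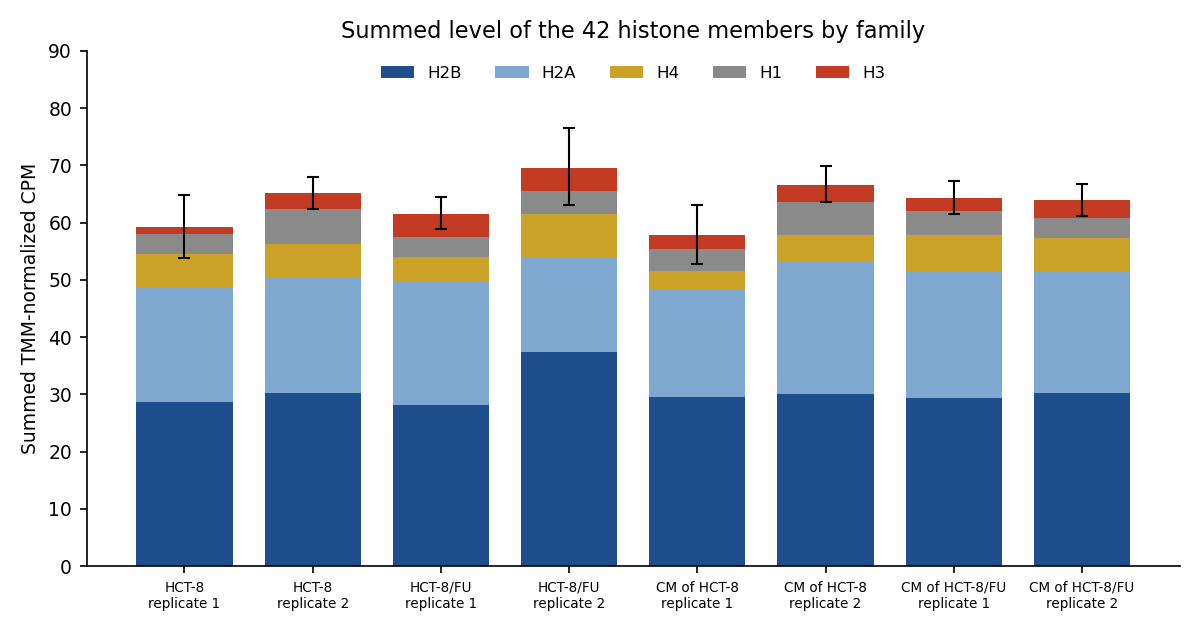
Summed TMM-normalized CPM of the 42 histone members (y axis) in each of the 8 libraries (x axis), stacked by family, with exact 95% Poisson intervals of the sum as whiskers. The sums lie between 57.8 and 69.5 CPM, and the groups overlap on this scale.

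By family, H2B genes with their pseudogenes took the largest part, from 28.2 to 37.4 CPM per library, followed by H2A genes with 16.4 to 23.2 CPM. The pseudogene H2BC20P, with group means of 11.2 to 12.6 CPM, is part of the H2B sum. Without it, H2A would lead H2B by group mean in HCT-8, sensitive-CM and resistant-CM. H4 genes summed to 3.11 to 7.69 CPM, H1 genes to 3.37 to 6 CPM and H3 genes to 1.18 to 4.01 CPM. For each family, the replicates of some group spanned much of the range. H3 genes had 3.99 and 4.01 CPM in HCT-8/FU, above every other library. H4 genes had 3.11 and 4.67 CPM in sensitive-CM, below HCT-8 (6.06 and 6) and resistant-CM (6.38 and 5.74). In the 3 comparisons the other family sums overlapped between groups, and none of these sums was tested. Of the summed CPM of the 42 members, 73.1% came from the 6 genes of highest CPM. Of the 42, 24 had a mean below 0.5 CPM.

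Per kilobase of annotated exon, the highest levels were those of H2BC20P (20.1 mean CPM per kilobase over the 8 libraries), H2BC12 (15.6), H4C9 (6.82), H1-2 (5.64), H2AC25 (5.48) and H2AC6 (4.88). The next gene, H2BC5, had 2.34. On the same scale SLBP had 58.9, LSM10 11.7, CASP8AP2 3.73, LSM11 2.93 and NPAT 2.76. H2BC20P (chr1:149850193-149850772, minus strand) lies wholly inside a lncRNA on the same strand in GENCODE 44, so its counts cannot be told apart from that transcript where the annotations share exons. H2BC12, H4C9 and H1-2, whose annotated ends lie at the loop, ranked among the highest per kilobase.

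H2BC20P, an H2B pseudogene, had 11.5 and 11.3 CPM in HCT-8 cells, 10.5 and 14.7 in HCT-8/FU, 10.9 and 11.5 in sensitive-CM and 10.6 and 12.4 in resistant-CM. All 4 groups overlapped. H2BC12 (chr6:27146361-27146855, minus strand), which encodes a core histone H2B, had 6.71 and 6.71 CPM in HCT-8 and 6.68 and 9.69 in HCT-8/FU. It had 9.55 and 8.74 in sensitive-CM and 6.96 and 6.88 in resistant-CM, so that sensitive-CM lay above both HCT-8 and resistant-CM with no overlap. Its log2 fold change for resistant-CM against sensitive-CM was -0.39 with a 95% interval of -0.81 to 0.029, and the adjusted p was 0.19 (quasi-likelihood F-test of edgeR, Benjamini-Hochberg adjustment). For sensitive-CM against HCT-8 it was 0.44 (-0.0088 to 0.88, adjusted p = 0.17, edgeR).

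H4C9, a histone H4 gene, had 2.11 and 3.19 CPM in HCT-8 cells, 1.99 and 3.68 in HCT-8/FU, 2.19 and 2.83 in sensitive-CM and 2.6 and 3.08 in resistant-CM. H1-2, which encodes a linker histone, had 3.29 and 5.74 CPM in HCT-8 cells, 3.39 and 3.84 in HCT-8/FU, 3.91 and 5.57 in sensitive-CM and 4.11 and 3.11 in resistant-CM. For both genes the HCT-8 replicates lay farther apart than the group means, and all groups overlapped HCT-8. H2AC25 (chr1:228434777-228457873, minus strand), an H2A gene, had 9.48 and 10.3 CPM in HCT-8 cells, 12 and 4.68 in HCT-8/FU, 7.48 and 12.3 in sensitive-CM and 12 and 12.8 in resistant-CM. HCT-8/FU replicate 2, the shallowest library, was the lowest of all, and leaving out HCT-8/FU replicate 1 moved the log2 fold change against HCT-8 from -0.087 to -1.10 (adjusted p = 0.038, edgeR). H2AC6, also an H2A gene, had 8.95 and 8.01 CPM in HCT-8 cells, 5.72 and 9.53 in HCT-8/FU, 9.67 and 8.59 in sensitive-CM and 7.76 and 6.84 in resistant-CM. In the 3 comparisons, H2AC6 had groups that did not overlap only between the CM groups, where the log2 fold change was -0.31 (95% interval -0.77 to 0.16).

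**Figure D2:**
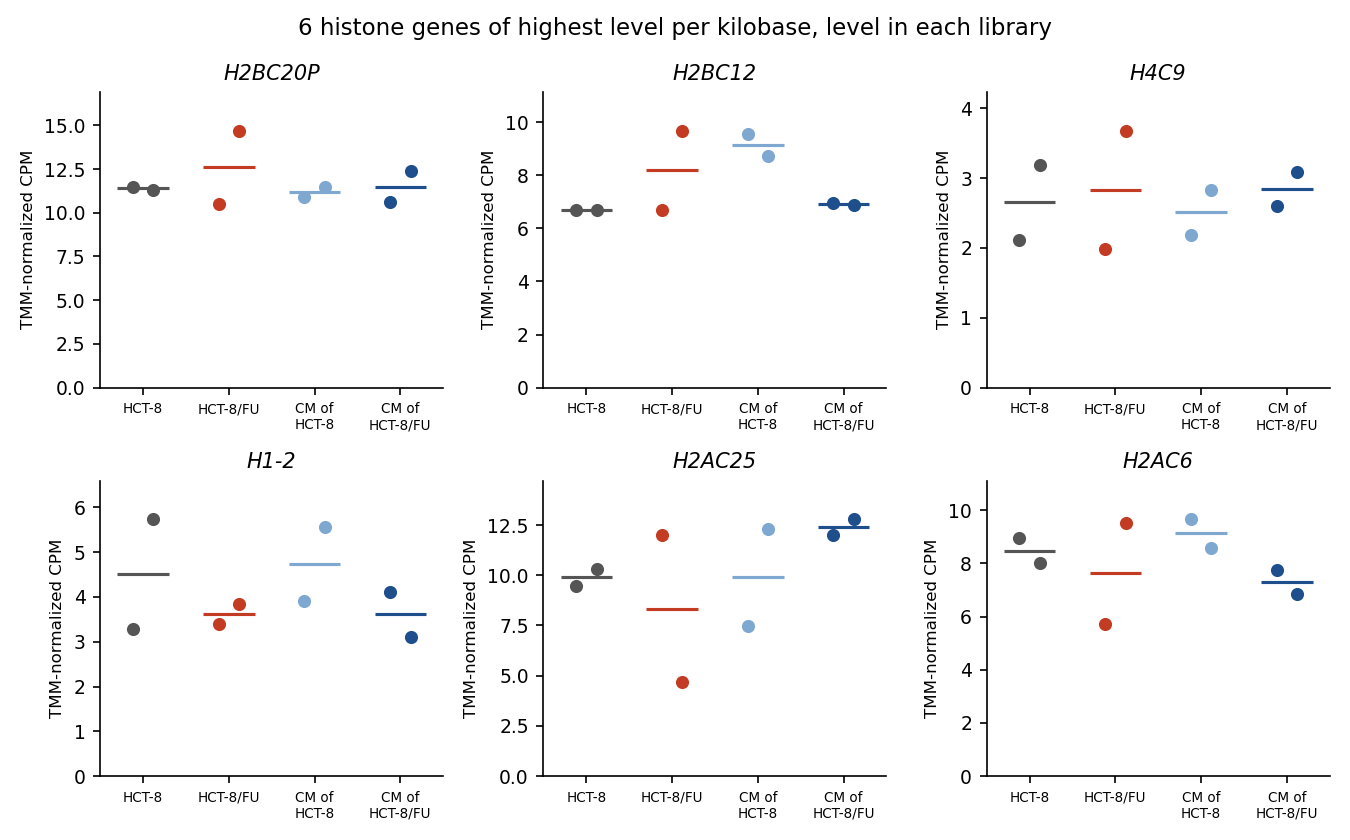
TMM-normalized CPM (y axis, from 0) of the 6 histone genes of highest level per kilobase in the 4 groups (x axis). Points are libraries and lines are means of 2, and the replicates of H2AC25 in HCT-8/FU are 12 and 4.68 CPM.

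A gene was called differentially expressed (DE) at an FDR of 0.05 or less over all 20305 tested genes and a fold change of at least 1.5 (0.58 on the log2 scale) by the edgeR fit to all 8 libraries. For HCT-8/FU against HCT-8, 0 of the 24 tested histone genes were DE, whereas 21.3% of all tested genes were (13.2% higher and 8.12% lower). At an unadjusted p below 0.05 there was 1 histone gene, H2BC4 (log2 fold change 2.00, SE 0.90, adjusted p = 0.1 in edgeR with Benjamini-Hochberg adjustment), which lies opposite HFE in the annotation and held 1 to 22 counts per library. DESeq2 also called 0. The median log2 fold change of the 24 was 0.0012, beside 0.0082 for all tested genes. Without HCT-8 replicate 2, H3C10, an H3 gene with 1 count in the remaining HCT-8 library, was called at 3.52 (adjusted p = 0.036, edgeR).

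For resistant-CM against sensitive-CM, 1 of the 24 was DE, beside 9.25% of all tested genes (7.97% higher and 1.28% lower). This was H4C15, a histone H4 gene on chromosome 1, with 0 and 3 counts in sensitive-CM and 33 and 13 in resistant-CM. In HCT-8 it had 2 and 9 counts, and in HCT-8/FU 14 and 1. Over both libraries, 46 against 3 counts gave a ratio of CPM of 8.71, with a 95% counting interval of 2.8 to 43.8. The adjusted p was 0.034 in edgeR, and the call was lost with the replicate block (adjusted p = 0.062), with only the groups compared (0.061), with a term for the poorly aligned libraries (0.051) and when any 1 of the HCT-8, sensitive-CM or resistant-CM libraries was left out (0.051 to 0.35), while DESeq2 gave it no adjusted p. Counted together with its copy H4C14, the level was 0 and 0.339 CPM in sensitive-CM and 1.19 and 0.584 CPM in resistant-CM, a ratio of 3.47 (95% counting interval 1.7 to 7.99). The median log2 fold change of the 24 was 0.16, beside -0.059 for all tested genes.

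For sensitive-CM against HCT-8, 0 of the 24 histone genes were DE in edgeR, none at an unadjusted p below 0.05, and 0 in DESeq2. Of all tested genes 8.15% were DE (3.86% higher and 4.29% lower). The medians were -0.023 for the 24 and 0.014 for all tested genes. In the difference between the resistant-cell contrast and the contrast of both CM groups, 0 of 24 were past both thresholds in edgeR, 0 at an unadjusted p below 0.05 and 0 in DESeq2, beside 7.69% of all tested genes.

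The precision differed widely among the histone genes. In the first 2 comparisons, H2AC25, H2AC6, H2BC12, H2BC20P, H2BC21 and H4C9 had 95% intervals that stayed within a log2 fold change of 1 either way. For each of the remaining 18 genes the interval reached beyond 1 in either comparison, so a change of 2-fold or more was not excluded. H2BC20P had the narrowest intervals, from -0.31 to 0.48 for HCT-8/FU against HCT-8 and from -0.35 to 0.40 for resistant-CM against sensitive-CM. The 18 histone members left untested held 10 to 39 counts in all and at most 13 in a library.

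Of the 5 factors, 2 were called higher in HCT-8/FU against HCT-8, NPAT and CASP8AP2, beside 13.2% of all tested genes. The same 2 were called higher in resistant-CM against sensitive-CM, beside 7.97% of all tested genes. NPAT (chr11:108157215-108222638, minus strand) had 12.4 and 13.5 CPM in HCT-8 cells, 38.4 and 35.6 in HCT-8/FU, 9.44 and 7.87 in sensitive-CM and 23.5 and 25.7 in resistant-CM. The 4 groups did not overlap, with HCT-8/FU highest and sensitive-CM lowest. NPAT rose by a log2 fold change of 1.51 (SE 0.13, 95% interval 1.23 to 1.79, adjusted p = 4.6e-07) in HCT-8/FU against HCT-8 and by 1.54 (SE 0.13, 1.26 to 1.83, adjusted p = 1.8e-06) in resistant-CM against sensitive-CM, both in edgeR with Benjamini-Hochberg adjustment. It fell by 0.63 on the log2 scale (SE 0.14, adjusted p = 0.0065, edgeR) in sensitive-CM against HCT-8. That comparison shares its libraries with the others. The last call was lost without HCT-8 replicate 2 (-0.62, adjusted p = 0.072), without sensitive-CM replicate 2 (-0.48, adjusted p = 0.1) and with only the groups compared (adjusted p = 0.067, edgeR).

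CASP8AP2 (chr6:89829894-89874436, plus strand), which encodes FLASH, followed the same order of groups. Its levels were 18.6 and 17.6 CPM in HCT-8 cells, 55.5 and 45.5 in HCT-8/FU, 16 and 13.9 in sensitive-CM and 35.1 and 40.9 in resistant-CM. It rose by 1.52 (SE 0.13, 95% interval 1.24 to 1.79, adjusted p = 4.4e-07, edgeR) in HCT-8/FU against HCT-8 and by 1.37 (SE 0.13, 1.09 to 1.65, adjusted p = 3.4e-06, edgeR) in resistant-CM against sensitive-CM. In sensitive-CM against HCT-8 the value was -0.29 (95% interval -0.59 to 0.011, adjusted p = 0.18, edgeR). The groups of that pair did not overlap, but the difference missed the threshold. The difference between the resistant-cell contrast and the CM contrast was -0.034 for NPAT (95% interval -0.43 to 0.36) and 0.14 for CASP8AP2 (-0.25 to 0.54).

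Both genes are poor in GC, at 38.2% and 38.3% of exonic bases against a median of 49% over tested genes. After a correction for GC content and length, NPAT was 0.92 (adjusted p = 0.00011), 0.98 (0.0006) and -0.37 (0.11) in the comparisons in the order above, and CASP8AP2 was 0.92 (9.9e-05), 0.81 (0.0014) and -0.03 (0.93), all in edgeR. The rise of each in the first 2 comparisons thus stayed past both thresholds, at a smaller size, and the fall of NPAT did not. The correction also moved the share of higher genes among all DE genes from 61.9% to 47.4% for HCT-8/FU against HCT-8 and from 86.2% to 55.2% for resistant-CM against sensitive-CM. Other scalings moved that share to 72.6% in the first (another TMM reference library) and from 47.3% to 36.2% in sensitive-CM against HCT-8 (size factors of DESeq2). What part GC content has in the rise was not tested beyond this.

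ATM, named after its values were seen because it starts 405 bases from NPAT on the opposite strand, encodes the kinase of the double-strand break response. It had 67.3 and 68.1 CPM in HCT-8 cells, 174 and 156 in HCT-8/FU, 55.7 and 44.6 in sensitive-CM and 115 and 112 in resistant-CM, which is the order of groups seen for NPAT. It rose by 1.29 and 1.2 on the log2 scale in the first 2 comparisons (SE 0.099 each, adjusted p = 1.6e-07 and 1.2e-06, edgeR), and by 0.65 with the correction in the first (adjusted p = 0.00021), while the corrected value of the second, 0.45, was below the fold threshold. ATM has a GC content of 38.6%.

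SLBP (chr4:1692731-1712344, minus strand), the stem-loop binding protein, was the most abundant of the factors. It had 94.9 and 76.5 CPM in HCT-8 cells, 112 and 124 in HCT-8/FU, 128 and 115 in sensitive-CM and 114 and 124 in resistant-CM. The HCT-8 libraries lay below all others, and the remaining 3 groups overlapped. The log2 fold change was 0.47 (SE 0.10, adjusted p = 0.0022) in HCT-8/FU against HCT-8 and 0.52 (SE 0.10, adjusted p = 0.0026) in sensitive-CM against HCT-8, both past the FDR but under the fold threshold in edgeR. It was -0.022 (95% interval -0.23 to 0.19) between the CM groups. The HCT-8 replicates differed in SLBP, and leaving them out moved the first value to 0.61 without replicate 1 (adjusted p = 0.0011) and to 0.28 without replicate 2 (adjusted p = 0.13, edgeR). In sensitive-CM against HCT-8 it passed the fold threshold at 0.66 without HCT-8 replicate 1 and at 0.61 without sensitive-CM replicate 2, and was 0.28 without HCT-8 replicate 2. With the GC and length correction, SLBP was 0.50 in HCT-8/FU against HCT-8 (adjusted p = 0.015, edgeR). In sensitive-CM against HCT-8 the corrected value was 0.42 and missed the FDR (adjusted p = 0.06, edgeR). The difference between the resistant-cell contrast and the CM contrast was 0.49 (95% interval 0.19 to 0.80, adjusted p = 0.038, edgeR), where 11.6% of all tested genes passed the FDR. That call was lost without HCT-8 replicate 2, either HCT-8/FU library or either resistant-CM library (adjusted p = 0.063 to 0.43, edgeR).

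LSM10, a ring protein of the U7 snRNP, had 20.8 and 21.9 CPM in HCT-8 cells, 14.7 and 16.5 in HCT-8/FU, 17.6 and 18.1 in sensitive-CM and 14.9 and 16.8 in resistant-CM. Its highest values were those of HCT-8. The log2 fold change of HCT-8/FU against HCT-8 was -0.48 (SE 0.14, adjusted p = 0.011, edgeR), past the FDR only, and with the GC and length correction it was -0.28 (adjusted p = 0.18). LSM11, the second such protein, had 16.5 and 17.7 CPM in HCT-8 cells, 21.5 and 20.6 in HCT-8/FU, 19.2 and 20.3 in sensitive-CM and 19.5 and 18.8 in resistant-CM. HCT-8 lay below the other groups, with a log2 fold change of 0.30 for HCT-8/FU against HCT-8 (adjusted p = 0.077, edgeR). Neither passed the FDR in the other comparisons.

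**Figure D3:**
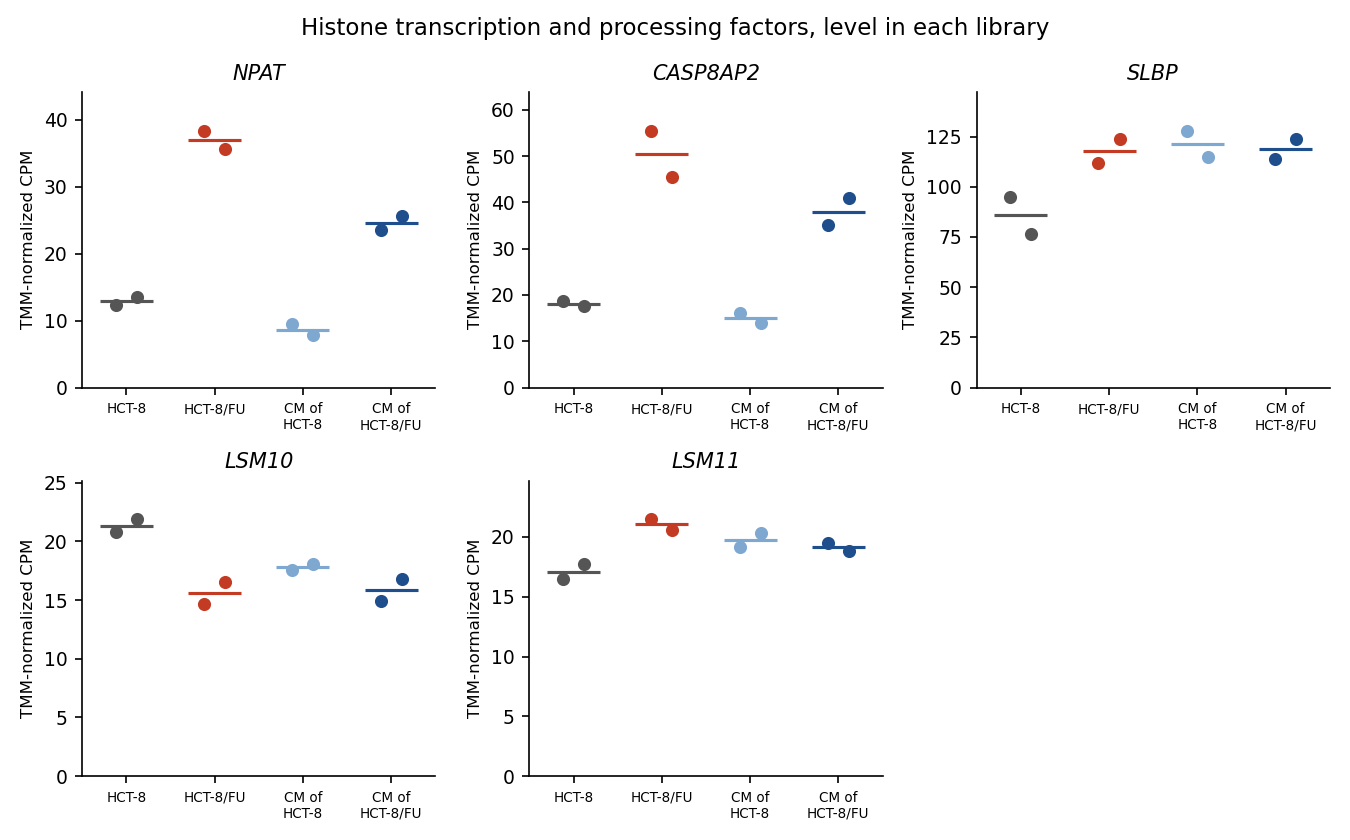
TMM-normalized CPM (y axes, from 0) of the 5 factors in the 4 groups (x axes), with points for libraries and lines for means of 2. NPAT lies between 35.6 and 38.4 CPM in HCT-8/FU and between 7.87 and 9.44 CPM in sensitive-CM, and CASP8AP2 has the same order of groups.

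**Figure D4:**
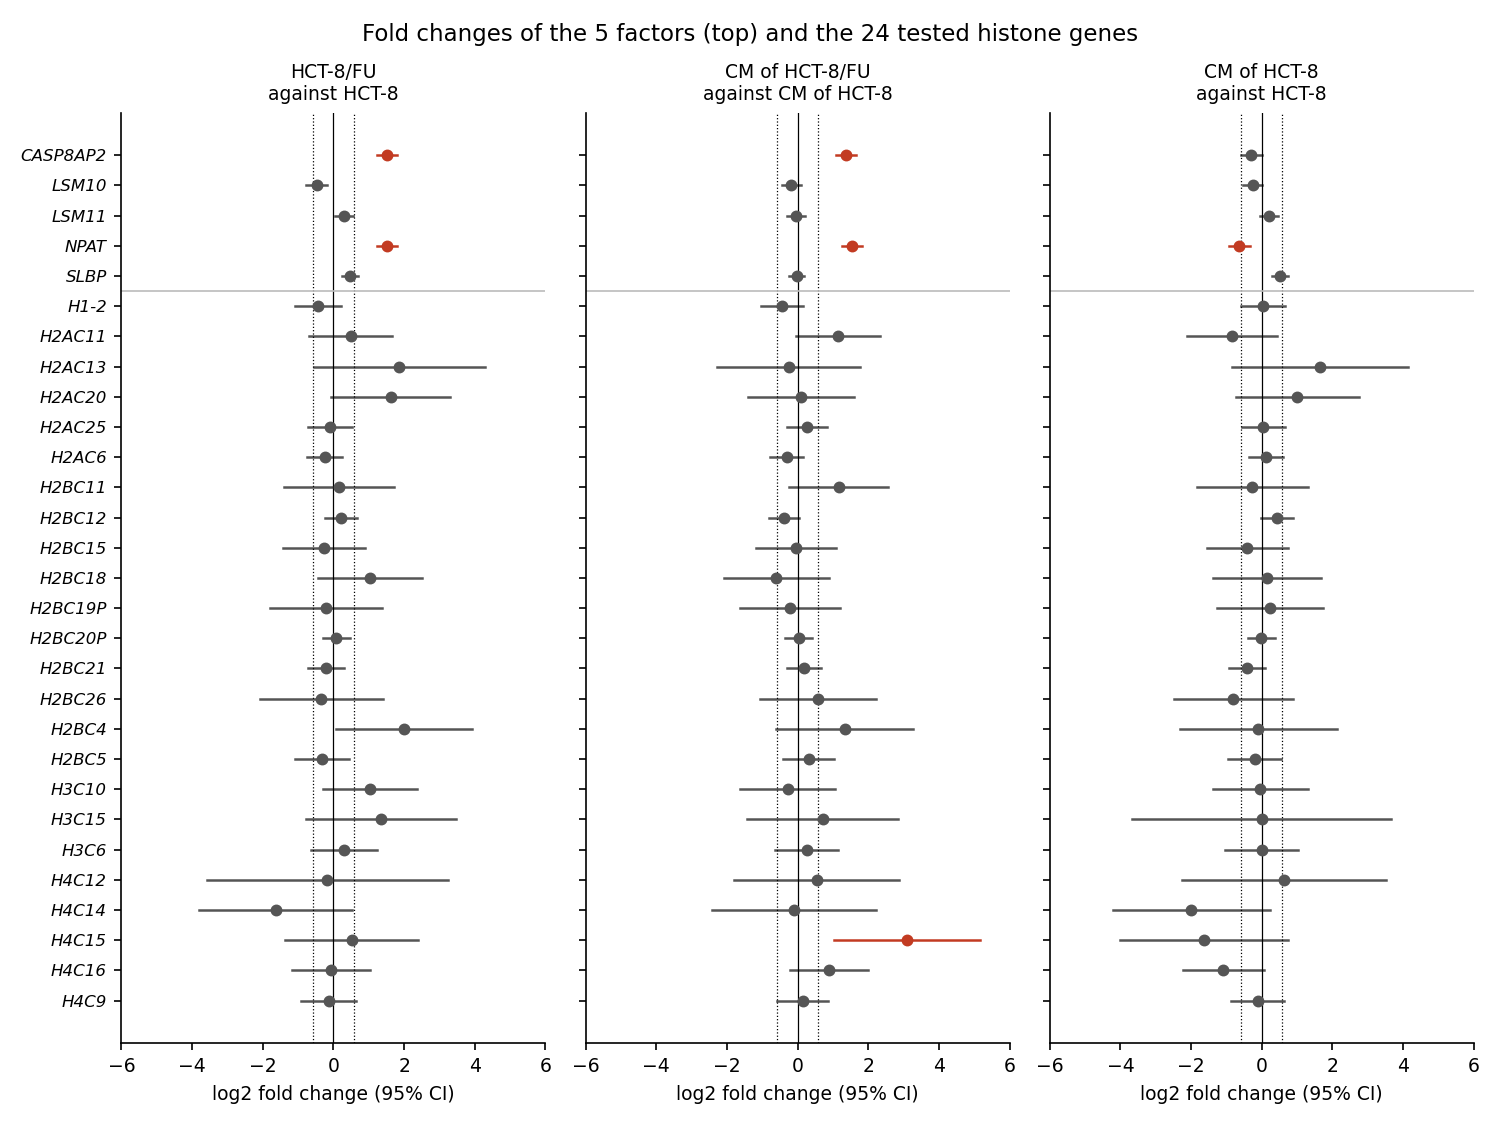
Log2 fold changes with 95% intervals (x axes) of the 5 factors and the 24 tested histone genes (y axis) in the 3 comparisons. Red marks genes past the FDR and fold thresholds (NPAT, CASP8AP2 and H4C15), and dotted lines mark 0.58 either way.

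Promoters are shown because histone promoters carry known elements and because NPAT and CASP8AP2 moved together. RefSeq (GRCh38.p14) gave a window for 41 of the 47 members, of which the 250 bases before the start were searched. Capitals mark the octamer ATTTGCAT, CCAAT and TTTNNCGC (an E2F-like motif), each on both strands, and TATAAA on the strand of the gene, and capitals run together where motifs overlap:
H2BC12 (chr6:27146859-27147108, minus strand): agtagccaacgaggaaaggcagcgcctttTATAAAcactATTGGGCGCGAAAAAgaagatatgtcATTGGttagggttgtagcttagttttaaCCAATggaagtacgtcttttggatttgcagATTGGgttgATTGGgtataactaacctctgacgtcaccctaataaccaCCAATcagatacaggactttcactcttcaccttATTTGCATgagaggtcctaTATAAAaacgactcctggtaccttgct
NPAT (chr11:108222639-108222888, minus strand): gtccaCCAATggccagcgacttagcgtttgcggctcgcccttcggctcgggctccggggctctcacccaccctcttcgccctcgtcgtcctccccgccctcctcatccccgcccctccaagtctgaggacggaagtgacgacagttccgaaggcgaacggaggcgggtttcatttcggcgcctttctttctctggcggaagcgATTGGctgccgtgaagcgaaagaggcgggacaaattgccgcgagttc
CASP8AP2 (chr6:89829630-89829879, plus strand): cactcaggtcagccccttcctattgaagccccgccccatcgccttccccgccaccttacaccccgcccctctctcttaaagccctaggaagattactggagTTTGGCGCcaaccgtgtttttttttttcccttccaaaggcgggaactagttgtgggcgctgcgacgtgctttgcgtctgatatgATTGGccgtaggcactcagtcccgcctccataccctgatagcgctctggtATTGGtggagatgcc

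The octamer was in 7 of 11 H2B and 6 of 9 H2A windows and in 0 of 8 H4 windows, beside 1.66% of 27305 RefSeq promoters. CCAAT was in 11 of 11 H2B, 9 of 9 H2A and 6 of 6 H3 windows and in 1 of 8 H4 windows, beside 33% of all. Divergent H2A and H2B neighbours share bases in these windows, so they are not independent. The window given for H3C4 (chr6:26199294-26199543, minus strand) is the same as that of H2AC7. The H3 count thus includes a window that adjoins an H2A gene, and that window holds the octamer. TTTNNCGC was in CASP8AP2 and in none of the other 4 factors, beside 5.93% of all promoters, and TATAAA was in none of the 5, beside 7.17%. These are matches of letters only.

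Genes of the wider pathway were taken from lists by role, and each count reads against the share of all tested genes called higher, which was 13.2% for HCT-8/FU against HCT-8, 7.97% for resistant-CM against sensitive-CM and 3.86% for sensitive-CM against HCT-8. Among 16 S phase genes, 12 rose and 1 fell in HCT-8/FU against HCT-8, with a median log2 fold change of 0.87. UHRF1, which brings DNA methylation to copied DNA, had 22.8 and 26.7 CPM in HCT-8 and 80.4 and 98.6 in HCT-8/FU (log2 fold change 1.81, SE 0.13, adjusted p = 7.2e-08, edgeR). RRM2, a ribonucleotide reductase subunit, rose by 1.62, the cyclin gene CCNA2 by 1.56 and the helicase gene MCM6 by 1.19. For sensitive-CM against HCT-8, 11 of 16 rose (median 0.90), led by UHRF1 (1.55), RRM2 (1.3), MCM3 (1.00) and MCM6 (0.96). In resistant-CM against sensitive-CM, 0 of 16 were DE in edgeR, with 6 at an unadjusted p below 0.05, DESeq2 also called 0, and the median was -0.20. There MCM5 (-0.41), MCM3 (-0.37), MCM2 (-0.33), MCM7 (-0.28) and CDC6 (-0.22) passed the FDR in edgeR, all lower and under the fold threshold. In the difference between the resistant-cell contrast and the CM contrast, 14 of 16 were called higher, with UHRF1 at 1.95 (adjusted p = 4.2e-06, edgeR). Of all tested genes, 7.69% were called in that difference in either direction, and the share called higher alone was not computed. The histone genes above were thus not called in the comparisons in which most S phase genes rose. Their SE ran from 0.19 to 1.60 in HCT-8/FU against HCT-8, beside 0.075 to 0.19 for the S phase genes. Changes of the S phase size could therefore be missed in many histone genes. Whether histone and S phase genes differ was not tested. Epithelial markers moved in the same comparisons, with 4 of 9 higher in HCT-8/FU against HCT-8 (among them KRT20, 1.45), 4 of 9 in sensitive-CM against HCT-8 and 0 of 9 between the CM groups (5 at an unadjusted p below 0.05, 0 in DESeq2). In HCT-8/FU against HCT-8, CDH1 (-0.40) and KRT18 (-0.23) passed the FDR lower and CDX2 (0.29) higher, all under the fold threshold. Between the CM groups CDX2 (-0.31), KRT19 (-0.22), KRT18 (-0.22) and CDH1 (-0.21) passed the FDR in edgeR, all lower and under the fold threshold. The part of the epithelial markers in these results was not tested.

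Among 10 genes of histone locus transcription and its cell cycle input, 3 rose in HCT-8/FU against HCT-8, beside 13.2% of all tested genes. These were POU2F1 (1.53), which encodes the octamer-binding OCT1, the cyclin gene CCNE2 (1.13) and the phosphatase gene CDC25A (0.61). Past the FDR but under the fold threshold, HINFP (-0.43) and GON4L (-0.31) were lower, and E2F1 (0.50) and CDK2 (0.39) higher. POU2F1 had 22.1 and 23.3 CPM in HCT-8 cells, 67.5 and 63.7 in HCT-8/FU, 23.4 and 20.2 in sensitive-CM and 47.1 and 46.2 in resistant-CM. Between the CM groups POU2F1 (1.12) and CCNE2 (0.60) rose and CCNE1 fell by 0.60, and with the GC and length correction POU2F1 was the 1 call of the list (0.66). HINFP (-0.39) and CDK2 (-0.40) passed the FDR between the CM groups without that correction, both lower and under the fold threshold. In sensitive-CM against HCT-8, E2F1 (1.11), CCNE1 (0.71) and CDC25A (0.71) rose. COIL, the gene of coilin, was in this list, and its log2 fold changes were 0.16, -0.14 and 0.098 with adjusted p of 0.48, 0.57 and 0.73 (edgeR). Leaving out single libraries left 2 to 3 higher genes in the first comparison, 1 to 2 in the second and 2 to 3 in the last.

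Of the 3′ end processing factors, 13 of 14 were tested, and RNU7-1, the U7 snRNA gene, was not. In HCT-8/FU against HCT-8, 2 of the 13 were called higher, beside 13.2% of all tested genes. Between the CM groups 1 was called higher, beside 7.97%, and 1 lower, beside 1.28%. CPSF2, a subunit of the cleavage complex, rose by 0.78 in HCT-8/FU against HCT-8 and by 0.71 between the CM groups, and was 0.22 and 0.13 with the correction (adjusted p = 0.11 and 0.45, edgeR). The Sm protein gene SNRPF rose by 0.58 in the first comparison and SNRPG fell by 0.58 in the second, both at the edge of the fold threshold, and with the correction 0 genes were called in the first and 2 lower in the second. SRRT, which encodes ARS2, rose by 0.62 in sensitive-CM against HCT-8 and was lost with the size factors of DESeq2, without HCT-8 replicate 1 and without sensitive-CM replicate 1. With the correction SRRT was 0.51 (adjusted p = 0.01, edgeR), also under the fold threshold. Past the FDR but under the fold threshold in HCT-8/FU against HCT-8, SYMPK fell by 0.55, and CSTF2 (0.51) and NCBP1 (0.45) rose. Between the CM groups SRRT (-0.41) and SNRPD3 (-0.30) likewise passed the FDR only, both lower.

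Of 15 genes of histone mRNA decay and related turnover, 7 rose in HCT-8/FU against HCT-8, beside 13.2% of all tested genes. The exonuclease gene XRN1 (1.21), the decapping gene DCP2 (1.13), the uridyltransferase gene TUT7 (1.11) and the exosome nuclease gene DIS3 (0.93) led. Between the CM groups 5 rose, beside 7.97% of all tested genes, led by XRN1 (1.62) and TUT7 (1.22), and 1 fell. In sensitive-CM against HCT-8, XRN1 fell by 1.04 and TUT7 by 0.63. XRN1 had 32.8 and 30.8 CPM in HCT-8 cells, 73.9 and 72 in HCT-8/FU, 15 and 15.6 in sensitive-CM and 47.6 and 47 in resistant-CM, again with sensitive-CM lowest. With the correction, 1 gene (TUT7, 0.66) was called in the first comparison and 2 (XRN1, 0.93, and TUT7, 0.81) in the second.

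Many histone variants outside the member rule have poly(A) tails and are made outside S phase as well. Whether this holds for each listed gene, H2AX and H3-4 among them, was not checked. Of 10 tested, 3 rose in HCT-8/FU against HCT-8, beside 13.2% of all tested genes. H2AZ2 rose by 0.92, H2AX, whose product marks DNA breaks, by 0.79 and MACROH2A2 by 0.65. With the GC and length correction H2AZ2 was 0.55, under the fold threshold, while H2AX (0.94) and MACROH2A2 (0.62) passed both. H2AX had 45.6 and 46 CPM in HCT-8 cells, 78.3 and 80.2 in HCT-8/FU, 74.6 and 85.2 in sensitive-CM and 80.7 and 85.3 in resistant-CM, with HCT-8 below all other groups. In sensitive-CM against HCT-8, 4 rose, among them H1-10 (0.87), H2AX (0.81) and H2AZ1 (0.74), and this count was 1 without HCT-8 replicate 2 and 2 without sensitive-CM replicate 1. With the correction H1-10 was 0.58 (adjusted p = 0.15, edgeR) and H2AX 0.54, neither past both thresholds, whereas H2AZ1 was 0.64 (adjusted p = 0.013) and H2AZ2 0.66. Between the CM groups 0 of 10 were DE in edgeR, with 2 at an unadjusted p below 0.05 and 0 called by DESeq2. H2AZ1 (-0.41, adjusted p = 0.015, edgeR) passed the FDR there but not the fold threshold.

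Of 11 tested histone chaperones and importers, ATRX rose by 1.34 and ASF1B by 0.97 in HCT-8/FU against HCT-8, beside 13.2% of all tested genes. Between the CM groups ATRX rose by 1.61, beside 7.97% of all tested genes, and the median of the 11 was -0.20. There DAXX (-0.38), ASF1B (-0.38), CHAF1A (-0.29) and RBBP4 (-0.25) passed the FDR in edgeR, all lower and under the fold threshold. In sensitive-CM against HCT-8, ASF1B (1.18) and CHAF1B (0.72), of the chromatin assembly factor, rose, and ATRX fell by 0.90. With the correction ATRX was 0.52, 0.72 and -0.45 in the 3 comparisons, of which only the second passed both thresholds. ASF1B, which hands histones H3 and H4 to the assembly factors, was 1.14 and 1.05 in the first and in the last with the correction.

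**Figure D5:**
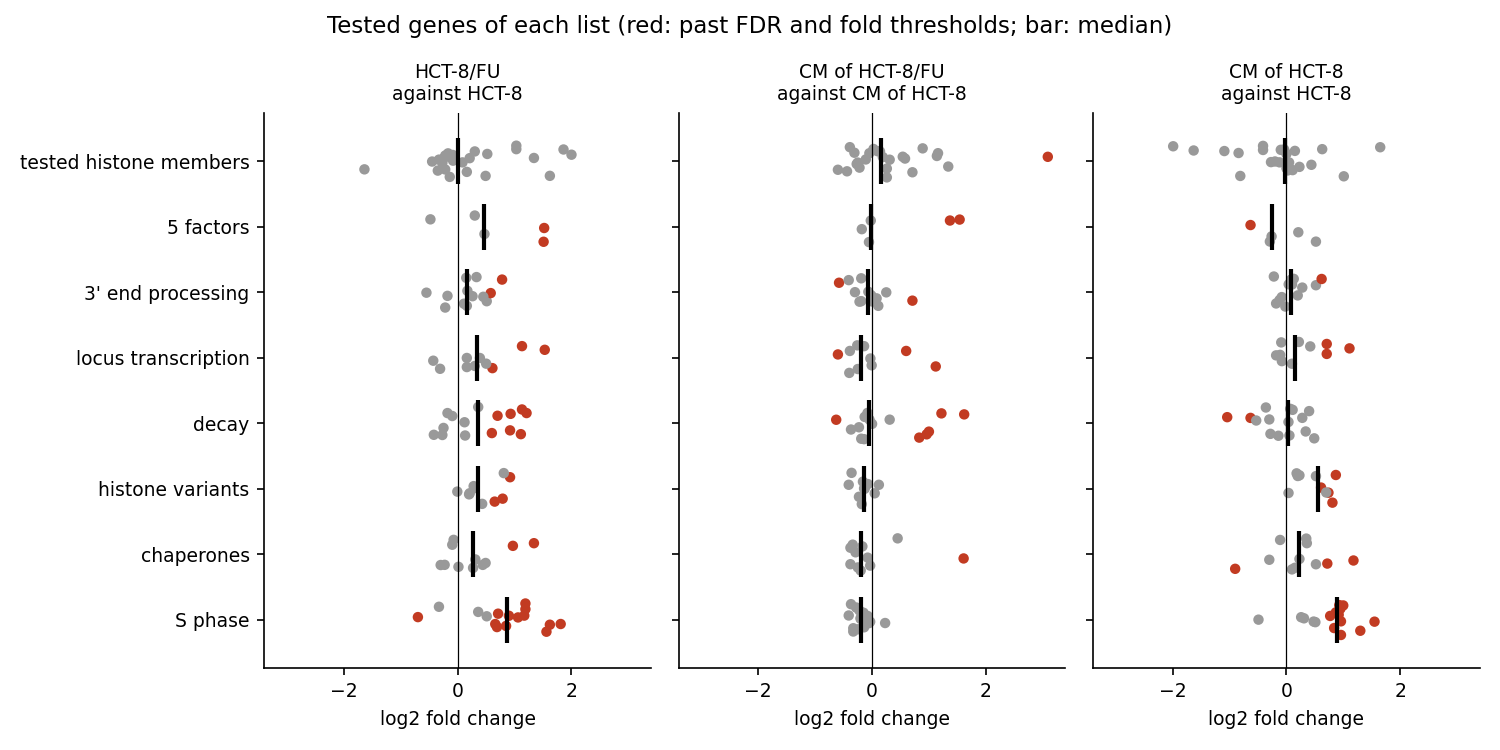
Log2 fold changes (x axes) of every tested gene of each list (y axis) in the 3 comparisons, with red for genes past the FDR and fold thresholds and a bar for the median. S phase genes have medians of 0.87, -0.20 and 0.90 from left to right, and tested histone members have 0.0012, 0.16 and -0.023.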

How the data were processed

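Reads of the 4 groups were aligned by the authors with HISAT2 to GRCh38 and assigned to genes with HTSeq 0.11.2, and the deposited values are raw counts per gene. No source used here gives the strand setting. Lines that name no gene (33.68% to 49.62% of records in no feature, 3.575% to 29.58% not aligned, 2.202% to 5.771% of low quality, 2.236% to 3.48% not unique, 1.147% to 1.573% ambiguous) stayed out of library sizes and tests. Result tables of DESeq2 from the authors, with mean normalized counts, fold changes, SE and p-values, were not used.

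Positions, lengths and GC content came from GENCODE 44, which holds 56105 of the 64253 identifiers. The fit used edgeR 4.0.16 in R 4.3.3 (TMM, filterByExpr, quasi-likelihood test, 1 mean per group over 8 libraries) with Benjamini-Hochberg adjustment over 20305 genes, and was tested on simulated data. Depth was 5804124 to 34881349 counts on genes, so genes of few counts have wide intervals.

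The members and lists were chosen with earlier results of these data known. Values per library are given for the 5 factors, the 6 histone genes of highest CPM per kilobase and called histone genes, and each list names up to 4 called genes of largest fold change. Alternatives were DESeq2 1.42.0 and its size factors, another TMM reference library, other filters, only the groups compared, a replicate block, a spline correction for GC content and length (5 degrees of freedom), a term for the 3 libraries with over 15% not aligned, no fold threshold, and leaving out each library. Replicates of each group differed by more than sampling noise. A further histone variant gene is not reported here.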

Additional observations from a re-analysis of the deposited data

Results flagged for a closer look

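SLBP was the member whose effect differed between the resistant-cell contrast and the CM contrast past the FDR. The difference was 0.49 on the log2 scale (adjusted p = 0.038, edgeR with Benjamini-Hochberg adjustment), from 0.47 for HCT-8/FU against HCT-8 and -0.022 for resistant-CM against sensitive-CM. It was 0.24 (adjusted p = 0.43) without HCT-8 replicate 2 and 0.63 (adjusted p = 0.016) without HCT-8 replicate 1. It missed the FDR with the size factors of DESeq2 (0.074), the DESeq2 test (0.053) and the GC and length correction (0.2), and without either HCT-8/FU or either resistant-CM library (0.063 to 0.19). Groups of 2 libraries were not searched for outlying samples.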

How the results depend on the processing

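The rises of NPAT and CASP8AP2 in HCT-8/FU against HCT-8 and in resistant-CM against sensitive-CM stayed past both thresholds under every alternative and with each library left out. The 1 histone call of resistant-CM against sensitive-CM became 0 with a mean normalized count of at least 10, the DESeq2 test, only the groups compared, the replicate block, the GC and length correction with that block, and the term for unaligned records. With 1 library left out it was 0 to 1, and the histone calls of HCT-8/FU against HCT-8 were also 0 to 1. Without a filter on low counts, 1 histone gene (H2AC14, 10.27) was called in the difference of both contrasts, against 0. Replicate numbers did not pair the libraries (correlations of -0.123 to 0.132), and the block gave 4180, 1816 and 1595 calls over all genes in the 3 comparisons, against 4325, 1878 and 1655. Without the fold threshold the counts were 7442, 4005 and 3949, and 2350 for the difference against 1561. The GC and length correction left 953 calls in resistant-CM against sensitive-CM and 1089 in sensitive-CM against HCT-8, and 897 and 1033 with the block. The summed histone level without H2BC20P was 50.8 CPM in HCT-8 cells, 53 in the HCT-8/FU line, 51 in sensitive-CM and 52.6 in resistant-CM, and as a share of counts on genes the full sum was 59.4, 68.4, 60 and 66.6 counts per 1e+06 in the same order, with no overlap of libraries between HCT-8 and HCT-8/FU or between the CM groups. Apart from those stated, the cause of these changes was not tested. Intervals of histone genes with few counts do not exclude a 2-fold change, capture on mRNA beads limits what was counted, and groups of 2 libraries give no exact p below 0.333.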
